A study of Mus musculus with 2 samples.

Results

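The cells described here passed a rule for endothelial cells of the aneurysmal mouse aorta that carry Selp or Ackr1, transcripts typical of venules. They were picked from single-cell libraries by what each barcode held. A barcode was kept with at least 200 genes detected and at most 20% of its UMIs (unique molecular identifiers, which count captured molecules) from mitochondrial genes. A member then had at least 2 of the pan-endothelial genes Pecam1, Cdh5, Cldn5 and Egfl7, at least 2 UMIs of Selp and Ackr1 together, and no Ptprc, which encodes CD45. It had at most 1 UMI of Cytl1, a marker of the luminal aortic endothelium, at most 1 UMI of Gpihbp1, a capillary marker, and at most 1 of the lymphatic genes Prox1, Mmrn1 and Reln. The rule found 146 members among 16521 kept cells, 131 in one library and 15 in the other. Exactly 2 pan-endothelial genes were detected in 27 of the 131 and 5 of the 15, and all 4 in 23 and 1. A member with 55572 UMIs held 1 UMI each of Cdh5 and Egfl7, and a member with 23863 UMIs held 1 of Pecam1 and 2 of Egfl7. The rule thus let in cells with few endothelial UMIs, and not every member can be taken as a venular endothelial cell. Since Selp, Ackr1 and the other genes of the rule chose the cells, their values are given as a description.

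The tissue came from Apoe-/- mice aged 12 weeks, which lack apolipoprotein E and were given angiotensin II to induce an abdominal aortic aneurysm. All cells share this genotype and this treatment, and no untreated aorta enters the comparison. The 2 libraries are labelled D_A and IN_A, which were read as DMSO, a solvent, and an inhibitor. The inhibitor's name, target, dose and timing, and the number of animals behind each library, do not appear in the sources used. With 1 library per group no test between the groups is possible, so each difference below compares those libraries, with 95% intervals that cover counting error only.

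Venules are the smallest veins, and in inflamed tissue they are where leukocytes leave the blood. P-selectin (Selp) is stored with von Willebrand factor (Vwf) in the Weibel-Palade bodies of endothelial cells and is moved to the surface on activation, where it catches rolling leukocytes. Ackr1 is an atypical receptor that binds inflammatory chemokines without classical signalling and is typical of venular endothelium, and Lrg1 encodes a secreted glycoprotein that is high in venules. In a large artery such vessels belong to the vasa vasorum, the small vessels that feed the outer wall.

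Selp lies at chr1:164115264-164150026 on the plus strand and Sele, which encodes E-selectin, at chr1:164048234-164057677 on the same strand (GENCODE annotation of GRCm38). Ackr1 lies at chr1:173331886-173333750 on the minus strand, Lrg1 at chr17:56119678-56122001 on the minus strand, and Vwf at chr6:125546774-125686679 on the plus strand. The selectin genes are shown because Selp defines the members and Sele was above the other endothelial gates in both libraries, on 2 UMIs in the inhibitor members. The 250 bases before each RefSeq start (GRCm38.p6, plus strand, 5′ to 3′) are printed with capitals for matches on either strand to TGACTCA, the AP-1 motif, and to GGGNNNNNCC, a loose form of the NF-kappa-B motif. They span chr1:164115014-164115263 for Selp and chr1:164047984-164048233 for Sele.
Selp: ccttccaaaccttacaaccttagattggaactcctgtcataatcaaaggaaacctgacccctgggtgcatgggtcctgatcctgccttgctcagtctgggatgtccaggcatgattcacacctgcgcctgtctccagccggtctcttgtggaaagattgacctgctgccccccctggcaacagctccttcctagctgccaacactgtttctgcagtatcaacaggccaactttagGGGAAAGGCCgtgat
Sele: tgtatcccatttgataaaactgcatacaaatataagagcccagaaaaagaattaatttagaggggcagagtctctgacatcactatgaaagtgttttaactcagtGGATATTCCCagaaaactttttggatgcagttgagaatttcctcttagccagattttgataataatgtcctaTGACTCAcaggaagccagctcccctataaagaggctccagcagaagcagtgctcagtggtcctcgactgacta
Selp held 1 NF-kappa-B match, GGGAAAGGCC, and no AP-1 match. Sele held 1 match of each, GGATATTCCC and TGACTCA. Among all 32851 RefSeq windows of this length, 4.46% held the AP-1 motif and 45.8% the NF-kappa-B motif. The matches do not overlap, and they describe letters in these windows, not bound sites.

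Kept cells numbered 8664 of 9125 DMSO barcodes and 7857 of 8149 inhibitor barcodes. The members held a median of 9867 UMIs per cell in the DMSO library (range 951 to 55572) and 9145 in the inhibitor library (519 to 23863). Summed over members this is 1667511 against 133953 UMIs, so values from the inhibitor library rest on about 13 UMIs for the median measured gene. Of the barcodes, 16 occurred in both libraries, none of them a member. Scrublet called 6 of the 131 DMSO members and 0 of the 15 inhibitor members doublets.

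Markers of other cell types were present in part of the members. A cell was counted as mixed when it had at least 2 UMIs of at least 3 of the markers of 1 non-endothelial type. This held for 51 of 131 DMSO members (38.9%) and 5 of 15 inhibitor members (33.3%). In the capillary cells it held for 15.8% and 15.9%, and in the luminal cells for 26.8% and 20.3%. Fibroblast markers led, in 42 and 4 of the members, and smooth muscle markers followed, in 34 and 1. All 5 fibroblast markers were detected in both libraries, with a summed level of 6692 CPM (UMIs per 1000000 summed UMIs) in DMSO members and 11892 CPM in inhibitor members. All 4 T cell markers were at 0 in both, and 3 of 4 platelet markers, Gp1ba, Gp9 and Ppbp, were at 0 in both. Col1a1 alone went the other way, at 3150 CPM in DMSO and 1627 CPM in inhibitor members. The counts of gene lists below are therefore also given without the mixed cells, which leaves 80 and 10 members.

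Most members carried both defining genes in the DMSO library and fewer did so in the inhibitor library. Selp had a UMI in 120 of 131 DMSO members, with 0 to 79 UMIs per cell and a median of 5. In the 15 inhibitor members it was found in 11, with 0 to 21 UMIs and a median of 2. Ackr1 was found in 98 of 131 DMSO members (0 to 43 UMIs, median 2) and in 9 of 15 inhibitor members (0 to 13 UMIs, median 2). Both genes were present in 87 and 5 members, Selp alone in 33 and 6, and Ackr1 alone in 11 and 4. The plot of UMIs per cell shows the Selp-only cells as a row along the bottom.

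**Figure D1:**
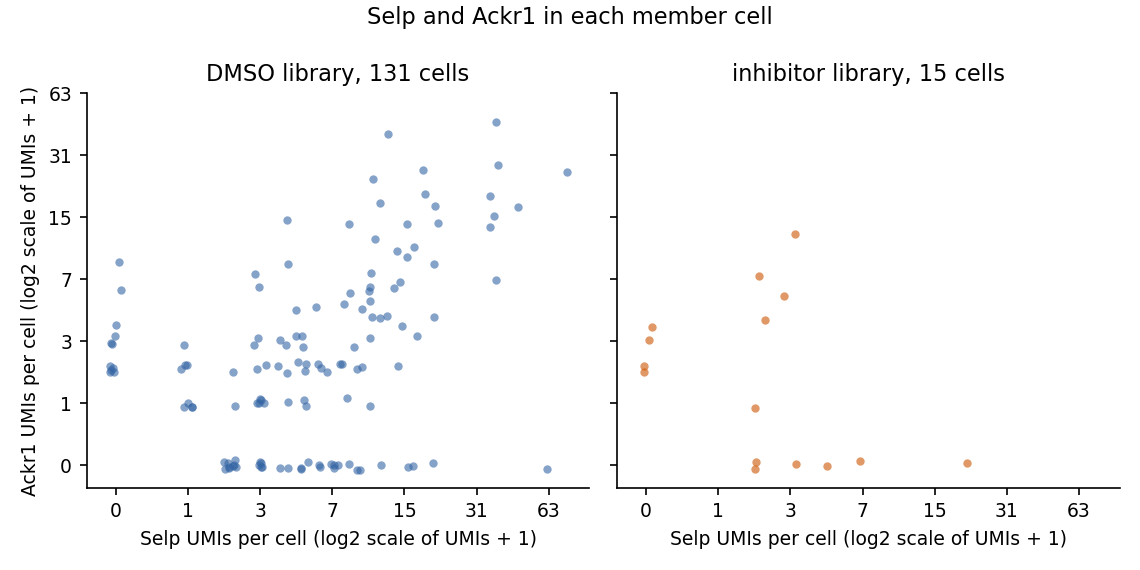
Selp UMIs (x axis) against Ackr1 UMIs (y axis) in each member cell, both on a log2 scale of UMIs + 1 with small random shifts, in the DMSO library (131 cells, left) and the inhibitor library (15 cells, right). In the DMSO library 33 cells lie at 0 Ackr1 UMIs and 11 at 0 Selp UMIs, and in the inhibitor library 6 and 4 do.

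At the threshold of the rule, 18 DMSO and 4 inhibitor members had exactly 2 UMIs of Selp and Ackr1 together. Just outside it, 37 and 9 cells met the rest of the rule with 1 UMI. In the DMSO library the members at 2 UMIs held 405 CPM of Lrg1 and 181 CPM of Vwf, and the cells just outside held 263 and 234 CPM. In the inhibitor library the members at 2 UMIs held 129 CPM of Lrg1 and no Vwf UMI, and the cells just outside 201 and 584 CPM. Cells of other types also held UMIs of the defining genes, and their source was not tested. Selp had a UMI in 11.3% of DMSO smooth muscle cells (median depth 13786 UMIs) and Ackr1 in 3.65%, and in the inhibitor library in 1.99% and 0.676% (median depth 11135 UMIs). Fibroblasts had Ackr1 UMIs in 16.5% of DMSO cells and 7.47% of inhibitor cells, at 16.4 and 12.6 CPM against 388 and 314 CPM in the members.

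The members were a smaller part of the inhibitor library. They made up 1.51% of kept cells in the DMSO library (131 of 8664, exact Clopper-Pearson interval 1.27 to 1.79%) and 0.191% in the inhibitor library (15 of 7857, 0.107 to 0.315%). The share was 7.92-fold lower, a ratio of 0.126 with an exact interval of 0.0687 to 0.216. Other cells also took different parts of the libraries: smooth muscle cells numbered 630 and 2809. Among endothelial cells alone the share was 10.8% (131 of 1218) against 2.13% (15 of 703), which is 5.04-fold lower (ratio 0.198, 0.108 to 0.339). Capillary cells had at least 2 Gpihbp1 UMIs and luminal cells at least 2 Cytl1 UMIs, both with at most 1 UMI of Selp and Ackr1; lymphatic cells had at least 2 of the 3 lymphatic genes. Capillary cells were 37.8% and 29.4% of endothelial cells, lymphatic cells 10.4% and 11.7%, and luminal cells 6.73% and 26.6%. How many animals, which segments and how much of the outer wall each library holds is not given, and library and group cannot be told apart.

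**Figure D2:**
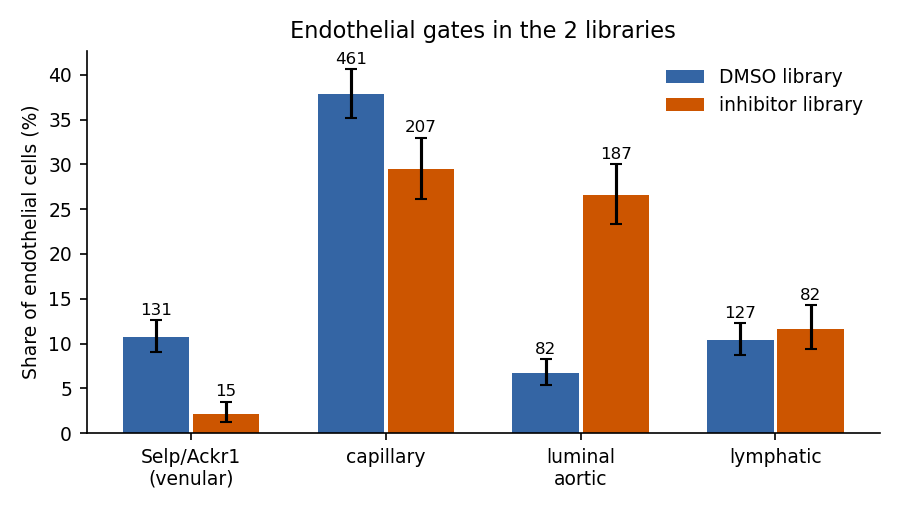
Share of all endothelial cells (y axis, %) in each of 4 endothelial gates, in the DMSO and inhibitor libraries, with exact 95% binomial intervals and the number of cells above each bar. The Selp/Ackr1 cells make up 10.8% with DMSO and 2.13% with the inhibitor, and the luminal cells 6.73% and 26.6%.

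The difference was smaller without the limits on Cytl1 and Gpihbp1. Of endothelial cells with at least 2 UMIs of Selp and Ackr1 there were 266 in the DMSO library and 104 in the inhibitor library. Among those that were not lymphatic, Cytl1 reached 2 UMIs in 96 and 85, and Gpihbp1 in 29 and 0. With neither limit the cells numbered 253 and 100, and the share was 2.29-fold lower in the inhibitor library in place of 7.92-fold. The Selp carriers with Cytl1 seldom held Ackr1: 11 of 96 DMSO cells did (11.5%) and 3 of 85 inhibitor cells (3.53%), against 74.8% and 60.0% of members. Under a rule on Ackr1 alone, with at least 2 UMIs, 83 and 8 cells remained and the share was 9.41-fold lower.

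The label was checked on genes that the rule did not use. Lrg1 was present in 113 of 131 DMSO members, with 0 to 4864 CPM per cell and a median of 1120, and in 10 of 15 inhibitor members, with 0 to 5078 CPM and a median of 918. Its summed level was 970 and 903 CPM, a ratio of 0.931 (0.767 to 1.12). Lymphatic cells held Lrg1 at 988 and 657 CPM, and capillary cells at 249 and 291 CPM. Vwf stood at 536 CPM in DMSO members and 1030 CPM in inhibitor members. The luminal cells held more of it, 1252 and 1189 CPM, and the capillary cells 21.7 and 10.6 CPM. Nr2f2, which encodes the venous transcription factor COUP-TFII, was at 299 and 261 CPM in members and higher in lymphatic cells, at 655 and 695 CPM. Capillary genes were low: Car4, a carbonic anhydrase of capillaries, was at 6.6 CPM in DMSO members and had no UMI in inhibitor members, which allows up to 22.4 CPM, against 350 and 362 CPM in the capillary gate. Lrg1, Vwf and Nr2f2 were thus each higher in another endothelial gate in at least 1 library. Luminal aortic markers (Cytl1, Clu, Gkn3, Mgp and Eln) were not low in members, at a summed 7623 and 9608 CPM. Mgp made up most of this sum, at 5648.5 and 7323.5 CPM, and which cells its UMIs came from was not tested. The capillary markers summed to 574 and 284 CPM. At least 3 luminal markers reached 2 UMIs in 73 of 131 and 6 of 15 members. Cytl1, limited to 1 UMI by the rule, was found in 11 of 131 and 5 of 15.

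Few genes stood above all 3 other endothelial gates in both libraries. At a level at least 2-fold higher than in capillary, luminal and lymphatic cells alike, 11 of 3374 measured genes passed, which is 0.326%; 21 (0.622%) did so in the DMSO library and 163 (4.83%) in the inhibitor library. A gene was measured where the mean of the 2 libraries' CPM values in members was at least 50, with the genes of the rule left out. Sele was at 92.4 CPM in DMSO members, against 3.4, 5.5 and 12 CPM in capillary, luminal and lymphatic cells, and at 14.9 CPM in inhibitor members against at most 1.9. Csf2rb2, a subunit of the interleukin-3 receptor, was at 128 and 97 CPM in members and at most 46.3 and 19.1 in the other gates. Fjx1, a secreted regulator first known from planar polarity, was at 115 and 105 CPM, against at most 40.6 and 14.6. Ehd3, which works in endosomal recycling, was at 109 and 119 CPM, against at most 40.6 and 21.4. Rasa4, a GTPase-activating protein for Ras, was at 118 and 89.6 CPM, against at most 44.3 and 30.5. Cadm3, an adhesion molecule, was at 57.6 and 74.7 CPM against at most 9.2 and 3.9, and its ratio of inhibitor to DMSO members was 1.30, or 0.225 without mixed cells. Pi16, Islr and Metrnl also ranked among the highest, and fibroblasts held 1758, 216 and 58 CPM of them in the DMSO library. Islr, at 1.87-fold in the library where it was lower, did not pass the 2-fold limit. Without mixed cells in any gate 24 genes passed, 5 of which were among the 11. The inhibitor values rest on few UMIs: Sele had 2 in 1 cell, Cadm3 10 in 5 cells and Rasa4 12 in 3 cells. Csf2rb2 had 13 in 4 cells, Fjx1 14 in 6 and Ehd3 16 in 6. Of the inhibitor UMIs of Pi16 and Islr, 66.7% and 82.4% came from 1 cell.

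**Figure D3:**
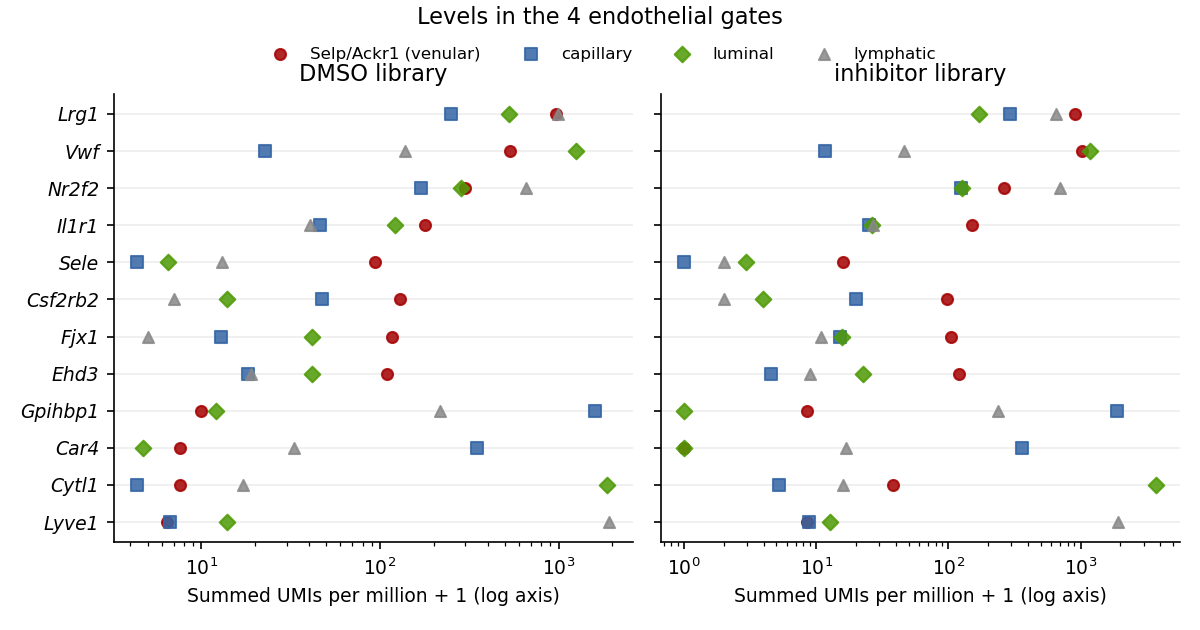
Summed UMIs per 1000000 + 1 (x axis, log scale) of 12 genes in the 4 endothelial gates, in the DMSO library (left) and the inhibitor library (right). Sele, Csf2rb2, Fjx1 and Ehd3 are highest in the Selp/Ackr1 cells in both libraries, while Nr2f2 is highest in lymphatic cells and Vwf in luminal cells; Gpihbp1, Cytl1 and the lymphatic genes were limited by the rule or define the other gates.

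Members without Ackr1 held less of most venous genes in the DMSO library. In the DMSO library 98 members with an Ackr1 UMI were set beside 33 without one; they had median depths of 10093 and 9521 UMIs, and 40.8% and 33.3% of them were mixed. Of 3464 genes measured here, 224 (6.47%) were at least 2-fold higher and 149 (4.3%) at least 2-fold lower with Ackr1. Of the 11 measured genes of the venous list, 8 were at least 2-fold higher with Ackr1 and 0 were lower, and the same counts held without mixed cells. Lrg1 was at 1218 CPM with Ackr1 and 384 CPM without (ratio 3.17, 2.73 to 3.71), and had a UMI in 90 of 98 and 23 of 33 cells. Vwf was at 669 and 222 CPM, Nr2f2 at 374 and 119 CPM, and Plvap, which forms the diaphragms of fenestrated and venular endothelium, at 804 and 287 CPM. Ptgs1, which encodes cyclooxygenase-1, was at 202 and 46.5 CPM, and Csf2rb, the shared subunit of the GM-CSF and interleukin-3 receptors, at 214 and 52.5 CPM. Il1r1, the interleukin-1 receptor, was at 223 and 70.7 CPM.

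Of the marker lists for other endothelium, both measured arterial genes (2 of 2, Gja4 and Efnb2) and 2 of 3 luminal aortic genes, Clu and Mgp, were at least 2-fold lower with Ackr1, and 1 of 2 capillary genes was higher. Without mixed cells the luminal count was 1. Gja4, the arterial connexin 37, was at 107 CPM without Ackr1 and 8.53 CPM with it, and had a UMI in 12 of 33 and 7 of 98 cells; 45.3% of its UMIs without Ackr1 came from 1 cell. Clu, the secreted chaperone clusterin, was at 1477 and 706 CPM. Vcam1, an adhesion molecule for lymphocytes and monocytes, was at 917 CPM without Ackr1 and 281 CPM with it, but 54.8% of its UMIs without Ackr1 came from 1 cell, and the level was 447 CPM without that cell. Thbs1, the matrix protein thrombospondin-1, was at 1501 and 226 CPM; Thbs1 and Fn1 were picked after their values were seen. Fn1, fibronectin, was at 5431 and 1694 CPM. Without mixed cells the order was the same for Gja4 (160 and 11 CPM), Thbs1 (1649 and 214 CPM) and Lrg1 (484 and 1994 CPM). Eln, elastin, was at 1559 and 809 CPM in all cells, with 41.3% of the UMIs without Ackr1 from 1 cell, but at 376 and 612 CPM without mixed cells, so its order turned. In the inhibitor library the 9 cells with Ackr1 and the 6 without gave a mixed picture. Gja4 had no UMI with Ackr1 and stood at 920 CPM without it. It was found in 4 of those 6 cells, but 80.6% of the UMIs came from 1 cell. Plvap was at 818 CPM with Ackr1 and 297 CPM without, while Vwf had the opposite order, at 937 and 1306 CPM. All 6 Nr2f2 UMIs of the cells without Ackr1 came from 1 cell, while 8 of 9 cells with Ackr1 had an Nr2f2 UMI. Il1r1 was found in 8 of 9 cells with Ackr1 and 0 of 6 without, Ptgs1 in 7 and 1, and Csf2rb in 4 and 0, as in the DMSO order. Lrg1 had a UMI in 5 of 9 cells with Ackr1 and in 5 of 6 without, and Vwf in 5 of 9 and 4 of 6. Median depth there was 9240 UMIs with Ackr1 and 2044 without. Of the 9 inhibitor members with Ackr1, 4 thus had no Lrg1 UMI and 4 no Vwf UMI.

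**Figure D4:**
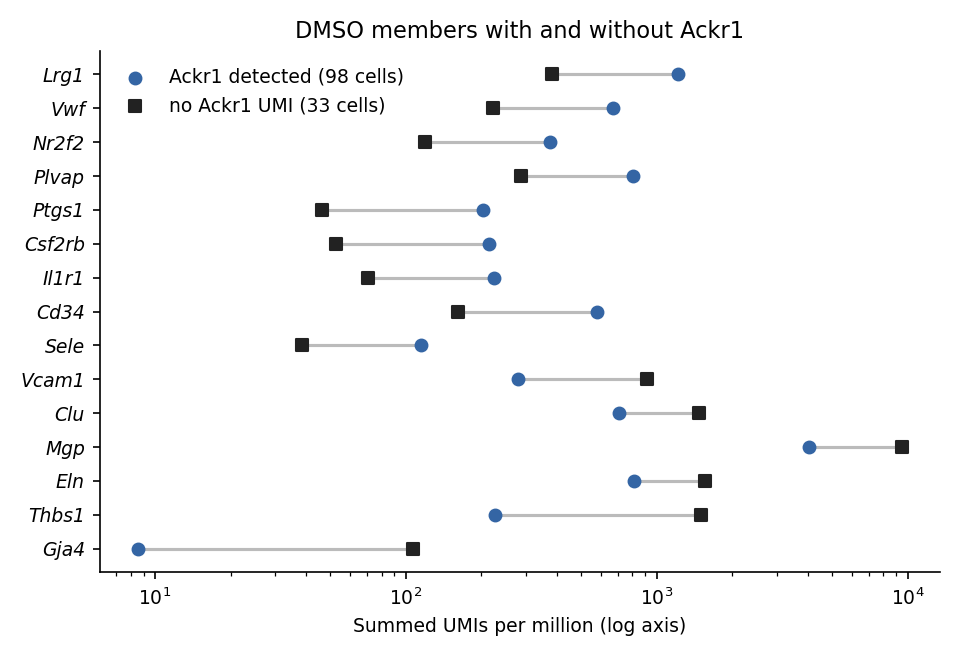
Summed UMIs per 1000000 (x axis, log scale) of 15 genes in DMSO members with Ackr1 (98 cells, circles) and without (33 cells, squares); lines join the values of a gene. The venous genes Lrg1 to Il1r1, Cd34 and Sele lie higher with Ackr1, and Vcam1, Clu, Mgp, Eln, Thbs1 and Gja4 higher without it.

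Between the libraries, 594 of 3374 measured genes (17.6%) were at least 1.5-fold higher in inhibitor members and 588 (17.4%) at least 1.5-fold lower; with a counting interval that also left out a ratio of 1, 334 (9.9%) were higher and 300 (8.89%) lower. Without mixed cells 22.4% and 20.2% of 3441 genes were higher and lower. Of the 76 genes past the fold among those named by rule, 67 kept their direction without mixed cells and 56 were still past the fold. The median log2 ratio of all measured genes was 0.02. List counts below use the 1.5-fold limit and are read against these shares.

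Few venous genes were past the fold between the libraries. Of 11 measured venous genes, 1 was higher and 1 lower (median log2 ratio -0.15.) Vwf was the higher one, with a ratio of 1.92 (1.59 to 2.30), and 2.28 without mixed cells. A smaller part of the inhibitor members carried it, with a Vwf UMI in 110 of 131 DMSO and 9 of 15 inhibitor members. Tmem252 was the lower one, at 298 CPM in DMSO and 134 CPM in inhibitor members (ratio 0.451, 0.265 to 0.72). Without mixed cells 1 of 11 was higher and 2 lower. Emcn, the sialomucin endomucin, was at 453 and 433 CPM, and Plvap at 651 and 687 CPM.

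Of the 12 measured genes of leukocyte adhesion, 6 were lower in inhibitor members and 0 higher (median log2 ratio -0.39). Without mixed cells 4 of 12 were lower (median log2 ratio -0.22). E-selectin, which slows rolling leukocytes on activated endothelium, was the lowest: Sele had 154 UMIs in 53 of 131 DMSO members and 2 UMIs in 1 of 15 inhibitor members. Its ratio was 0.162 (0.0194 to 0.594). Without Ackr1 the order of Sele turned, on those 2 UMIs. Mcam, an adhesion molecule of endothelial junctions, was at 203 and 59.7 CPM (ratio 0.295, 0.126 to 0.587), and Esam, a junctional immunoglobulin protein, at 416 and 224 CPM (ratio 0.539, 0.361 to 0.776). In members without Ackr1 alone the log2 ratio of Esam turned to 0.42. Without mixed cells the ratios of Mcam and Esam were 0.298 and 0.547. F11r, which encodes junctional adhesion molecule A, was at 182 and 112 CPM, with an interval that held 1 (0.34 to 1.03), and turned to a log2 ratio of 0.22 in members without Ackr1. Vcam1 was at 470 and 276 CPM and counted among the lower genes. However, 31.8% of its DMSO UMIs and 51.4% of its inhibitor UMIs came from 1 cell of each library. Without the DMSO cell alone the DMSO level was 327 CPM and the gene was no longer past the fold. With both cells left out the levels were 327 and 156 CPM, which is past the fold, so the call depends on single cells. Icam1 was at 343 and 403 CPM, and 68.5% of the Icam1 UMIs in inhibitor members came from 1 cell.

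Chaperones of the endoplasmic reticulum (ER) were higher in the inhibitor members. These proteins fold and check secreted and membrane proteins, and their genes are targets of the unfolded protein response. Of 19 measured genes 13 were higher, against 17.6% of all measured genes, and 0 were lower (median log2 ratio 0.90.) Hspa5, which encodes the chaperone BiP, was found in 123 of 131 DMSO members, with 0 to 2684 CPM per cell and a median of 733. It was found in 14 of 15 inhibitor members, with 0 to 6801 CPM and a median of 1927. The ranges overlap. The summed level of Hspa5 was 798 and 2762 CPM (ratio 3.46, 3.08 to 3.89), and its ratio was 2.87 without mixed cells (2.36 to 3.47). That second ratio rests on 135 inhibitor UMIs, of which single cells held 49 and 44. The cell with 44 had no Ackr1 UMI and 1 Lrg1 UMI. The inhibitor members with most Hspa5 UMIs, 80 and 78, had no UMI of Lrg1 or Vwf. Inhibitor members with both Lrg1 and Vwf held 1 to 49 Hspa5 UMIs each, at differing depths. Hsp90b1, which encodes the chaperone GRP94, had a median of 545 CPM per cell in DMSO members and 1693 CPM in inhibitor members (summed ratio 2.59, 2.25 to 2.97). Manf, a secreted ER stress factor, was at 265 and 873 CPM (ratio 3.30, 2.66 to 4.05). Sdf2l1, a cofactor of BiP, was at 49.2 and 231 CPM, and Creld2, an ER stress-inducible protein, had 50 and 18 UMIs (ratio 4.48, 2.46 to 7.82). Transcription factors of the same response were not past the fold: Xbp1 was at 291 and 216 CPM, Atf4 at 195 and 194 CPM, and Ddit3 at 56.4 and 59.7 CPM.

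Without mixed cells 10 of 18 ER genes were higher and 1, Xbp1, was lower (median log2 ratio 0.90). Hspa5 was also past the fold in luminal and lymphatic cells, with ratios of 1.76 and 2.39, but not in capillary cells, with a ratio of 1.22. The list as a whole had medians of 0.25, 0.26 and 0.76 in those gates, with 2 of 16, 6 of 17 and 11 of 18 genes higher. Whether the members differed from them was not tested. Fibroblasts held Hspa5 at 1105 CPM in the DMSO and 2388 CPM in the inhibitor library. Without any cell with fibroblast or smooth muscle genes, which leaves 60 and 5 members, the ER median was 1.03.

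Immediate early genes, which are switched on within minutes of a stimulus and encode AP-1 and related factors, were lower in the inhibitor members. Of 18 measured genes 12 were lower, against 17.4% of all measured genes, and 0 were higher (median log2 ratio -0.89). Egr1, a zinc finger factor, was found in 117 of 131 DMSO members, with 0 to 3356 CPM per cell and a median of 496, and in 6 of 15 inhibitor members, with 0 to 580 CPM and a median of 0. Fos, the AP-1 subunit, was found in 118 and 6 members, with medians of 584 and 0 CPM. The inhibitor cells lie in the lower part of the DMSO range for both genes. The summed ratios were 0.267 (0.162 to 0.415) for Egr1 and 0.301 (0.19 to 0.454) for Fos. Fosb was at 333 and 97 CPM (ratio 0.292, 0.154 to 0.503), Atf3 at 175 and 44.8 CPM (ratio 0.256, 0.0931 to 0.564), and Fosl2 at 194 and 67.2 CPM. Jund, another AP-1 subunit, was at 552 and 761 CPM and Junb at 468 and 403 CPM, neither past the fold. Without mixed cells 13 of 19 were lower and 1 higher (median log2 ratio -0.81).

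The same genes were lower in the other endothelial gates, with medians of -0.66 in capillary, -0.60 in luminal and -0.65 in lymphatic cells and 12 of 17, 10 of 18 and 11 of 17 genes lower. The treatment and the library cannot be told apart.

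**Figure D5:**
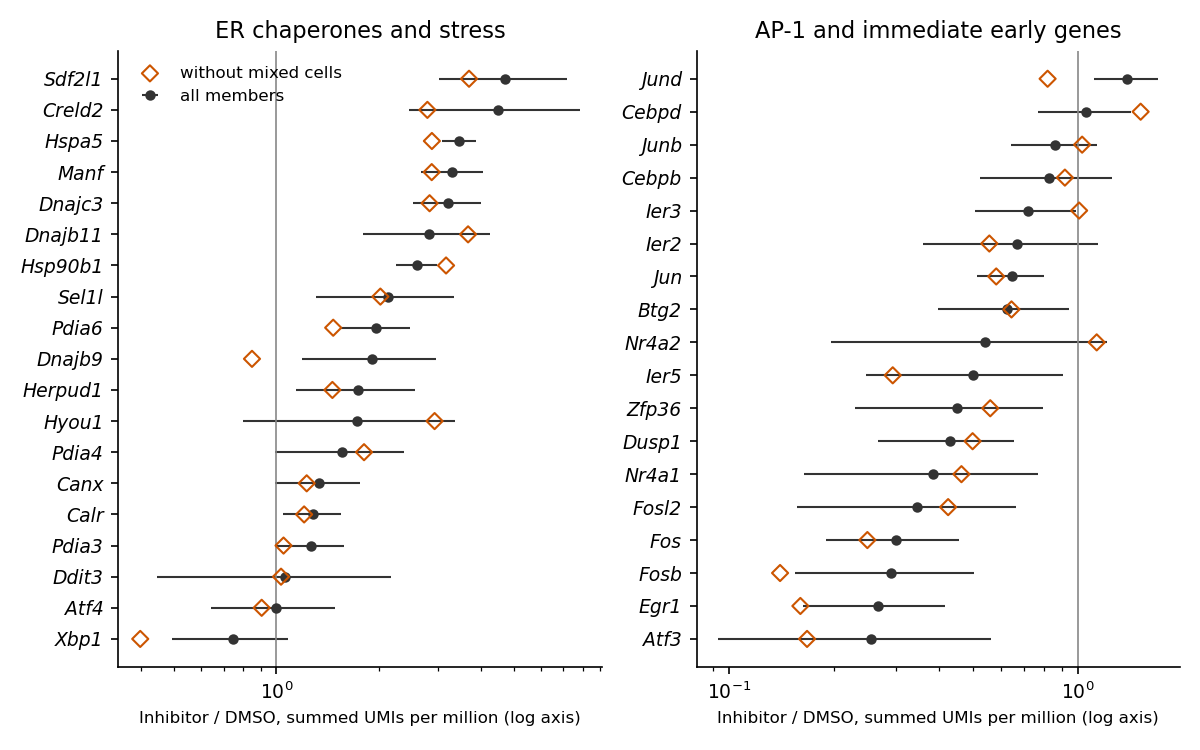
Ratio of inhibitor to DMSO members (x axis, log scale, 1 marked by a line) for 19 ER genes (left) and 18 immediate early genes (right), with exact 95% counting intervals; diamonds give the ratio without mixed cells. Of the ER genes 13 lie at 1.5 or above and of the immediate early genes 12 at or below 1 over 1.5.

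Cytosolic and mitochondrial chaperones were split. Of 18 measured heat shock genes 9 were higher and 2 lower (median log2 ratio 0.45), and 7 and 5 without mixed cells. Hspb1, the small chaperone HSP27, was at 560 and 1702 CPM and was present in all 15 inhibitor members. Its mean level in members was 15.7% of that in the non-endothelial gate where it was highest. Hspe1, the mitochondrial chaperonin subunit, was at 348 and 672 CPM, and Hsp90aa1 at 566 and 1008 CPM. Chordc1, a partner of HSP90, was at 61.8 and 119 CPM. Hspa8 was at 1100 and 1859 CPM, a ratio of 1.69 that was 1.28 without mixed cells. Hspa1a, the inducible HSP70, had the opposite direction, with 227 UMIs in DMSO and 3 in inhibitor members (ratio 0.165, 0.0337 to 0.487). The list median was higher in each of the other gates, at 1.20 in capillary, 0.97 in luminal and 0.84 in lymphatic cells.

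Genes of vessel growth and of the basement membrane were lower in part. Of 16 measured genes of VEGF, angiopoietin and tip cells 7 were lower and 2 higher (median log2 ratio -0.45); without mixed cells 8 of 17 were lower. Aplnr, the apelin receptor, which is high in veins and sprouting vessels, had 355 UMIs in 65 of 131 DMSO members and 1 UMI in the 15 inhibitor members (ratio 0.0351, 0.000885 to 0.197). Its level in capillary cells differed little, with a ratio of 0.856 (0.755 to 0.969). Ets1, an endothelial transcription factor, was at 179 and 44.8 CPM (ratio 0.25, 0.0909 to 0.55), and its relatives Erg and Fli1 were at 87.0 and 37.3 CPM and at 213 and 112 CPM. The interval of Erg held 1 (0.137 to 1.03). Nrp1, a co-receptor for VEGF, was at 238 and 388 CPM, with 44.2% of its inhibitor UMIs from 1 cell, and its log2 ratio was -0.058 in members with Ackr1 alone. That of Erg was 0.0029 in members without Ackr1 alone. Of 19 measured basement membrane and matrix genes 8 were lower and 1 higher (median log2 ratio -0.31), and without mixed cells 7 of 18 were lower and 3 higher. Col4a1, a chain of type IV collagen, had a median of 711 CPM per cell in DMSO and 276 CPM in inhibitor members (summed ratio 0.427, 0.323 to 0.554). Its partner Col4a2 was at 643 and 224 CPM, Col15a1 at 391 and 112 CPM, and Lama5, a laminin chain, at 87.6 and 37.3 CPM. Lamb2, another laminin chain, was higher at 148 and 224 CPM, with 53.3% of its inhibitor UMIs from 1 cell. Its ratio was 1.20 without mixed cells, and its log2 ratio -0.57 in members without Ackr1 alone. The intervals of Lama5 (0.136 to 1.02) and Lamb2 (0.999 to 2.21) held 1.

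Shear-responsive factors and junction genes were also lower in part. Of 10 measured shear-responsive genes 5 were lower and 1 higher (median log2 ratio -0.56), and without mixed cells 4 of 9 were lower and 0 higher. Klf6, a Krüppel-like factor, was at 390 and 119 CPM (ratio 0.306, 0.174 to 0.501), Klf10 at 85.8 and 29.9 CPM, Mef2c at 156 and 82.1 CPM and Mef2a at 141 and 82.1 CPM. The interval of Mef2a held 1 (0.287 to 1.06). The ratio of Mef2a was 0.959 without mixed cells, and its log2 ratio turned to 0.057 with members thinned to 2000 UMIs; that of Mef2c turned to 0.068 in members without Ackr1. Cyp1b1, a cytochrome P450 that flow induces, was higher at 48.6 and 112 CPM. Of 14 measured junction genes 6 were lower and 0 higher (median log2 ratio -0.41), and without mixed cells 4 of 15 were lower and 0 higher. Tek, the angiopoietin receptor Tie2, was at 151 and 82.1 CPM, and S1pr1, a sphingosine-1-phosphate receptor that seals junctions, at 299 and 172 CPM (ratio 0.575, 0.361 to 0.873). The direction of both turned under a pair of alternatives. In members without Ackr1 the log2 ratio was 0.46 for S1pr1 and 0.28 for Tek, and with members thinned to 2000 UMIs it was 0.0199 and 0.034.

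Interferon-stimulated genes did not move as a group, with 2 of 14 higher, 5 lower and a median of -0.07; without mixed cells 4 of 20 were higher and 5 lower. The guanylate-binding protein Gbp2 was at 113 and 22.4 CPM and Gbp7 at 94.8 and 29.9 CPM. Iigp1, an immunity-related GTPase, was at 470 and 97 CPM (ratio 0.207, 0.11 to 0.356). Ly6a, which encodes Sca-1, was higher at 1145 and 1807 CPM, a ratio of 1.58 that was 1.05 without mixed cells, and its log2 ratio was -1.39 in members without Ackr1. In the MHC class I list 2 of 12 were lower and 0 higher, Psmb10 and H2-T22, with intervals that held 1. Without mixed cells neither was past the fold, and 1 of 14 was higher and 1 lower. Of 13 measured cytokine receptor genes 1 was lower and 0 higher, with a median of 0.09. Without mixed cells 3 of 15 were higher and 3 lower, which is 20% each, close to the 22.4% and 20.2% of all genes.

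Coagulation, vasomotor and BMP genes gave small counts. In coagulation 2 of 10 genes were higher and 1 lower, and 3 and 2 of 11 without mixed cells. The higher ones were Vwf and Procr, the endothelial protein C receptor, which was at 230 and 440 CPM with 59.3% of its inhibitor UMIs from 1 cell. Among genes of nitric oxide, endothelin and prostaglandin 2 of 10 were higher, with and without mixed cells. Ptgis, the prostacyclin synthase, was at 170 and 358 CPM (ratio 2.11, 1.52 to 2.88), and Nos3, the endothelial nitric oxide synthase, at 70.2 and 119 CPM. The interval of Nos3 held 1 (0.942 to 2.88). In the BMP and TGF-beta list 3 of 14 genes were higher and 3 lower, and 2 and 2 of 14 without mixed cells. Bmp4 was at 189 and 455 CPM, with 85.2% of the inhibitor UMIs from 1 cell, Bmp6 at 56.4 and 119 CPM with 62.5% from 1 cell, and Ltbp4 at 299 and 485 CPM. Without mixed cells the ratio of Ltbp4 was 0.959, and in members with Ackr1 alone the log2 ratio of Bmp4 was -2.95 and Bmp6 had no inhibitor UMI. Acvrl1, a BMP receptor, was at 101 and 67.2 CPM and Tgfbr2 at 191 and 127 CPM, and the ratio of Tgfbr2 was 0.702 without mixed cells. The intervals of Acvrl1 (0.298 to 1.29) and Tgfbr2 (0.382 to 1.08) held 1. In glycolysis and hypoxia 3 of 11 genes were lower: Ldha at 358 and 202 CPM, Hif1a at 246 and 149 CPM and Eno1 at 157 and 97 CPM. The interval of Eno1 held 1 (0.326 to 1.08). Without mixed cells 1 of 12 was lower and 2 higher, and the ratios of Hif1a and Eno1 were 0.712 and 0.836.

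The genes with the 12 highest ratios often rested on few inhibitor cells. In 7 of the 12, 1 cell held over 50% of the inhibitor UMIs, and the largest share of 1 cell ran from 30% to 66.7%. Fibroblasts were the highest of the non-endothelial gates for 6 of the 12, against 16% of all measured genes. Gsn, the actin-severing protein gelsolin, was at 850 and 5338 CPM (ratio 6.28, 5.73 to 6.88), and fibroblasts held it at 4296 and 8976 CPM. Sfrp1, a Wnt inhibitor, was at 236 and 918 CPM. Comp, a cartilage matrix protein, was at 77.4 and 426 CPM, Gpc3, glypican 3, at 29.4 and 187 CPM and Ggt5 at 13.2 and 89.6 CPM. Without mixed cells Gsn had 97 and 5 UMIs, a ratio of 0.603 with an interval that held 1 (0.192 to 1.46). Comp, Gpc3 and Ggt5 then had 3, 3 and 1 UMIs in DMSO members and 0 in the 10 inhibitor members left, too few to give a direction. Of the 12 highest, 7 kept their direction without mixed cells, and 4 had no inhibitor UMI left. Without any cell with fibroblast or smooth muscle genes, 6 kept it and 6 turned. Tubb3, Ank2 and Gps1 were also among the highest, at 172, 127 and 149 CPM in inhibitor members, along with Gpm6a at 97 CPM, Sdf2l1 and Creld2. The genes with the 12 lowest ratios rested on 1 to 6 inhibitor UMIs each. They were Aplnr, Sele, Cxcl13, Dusp6, Mctp1, Serpinb1a, Adamts1, Tcim, Rasal2, Rnf213, Itga1 and Gbp2. All 12 stayed lower without mixed cells, 3 of them with no inhibitor UMI left. Aplnr then had 304 and 0 UMIs, with an interval of 0 to 0.143. In members without Ackr1, 2 of the 12, Sele and Mctp1, turned. Dusp6, a phosphatase of ERK kinases that growth factor signalling induces, had 201 UMIs in 82 DMSO members and 1 UMI in inhibitor members (ratio 0.0619, 0.00156 to 0.349). Adamts1, a matrix protease, was found in 101 of 131 and 5 of 15 members (ratio 0.13, 0.0476 to 0.285).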

How the data were processed

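The data are 2 single-cell RNA-seq libraries made with 10x Chromium 3' v3 chemistry, per the labels' protocols. The authors deposited unnormalised UMI counts for 55450 genes. Per the file headers, Cell Ranger 6.1.1 wrote them. The submitters' processing notes name GRCm38 and Seurat, without saying where Seurat was used. The choice of barcodes is not described; each holds at least 500 UMIs.

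The rule was applied to these counts. UMIs were summed over the members of a library and scaled to CPM, and ratios were given exact conditional binomial intervals (95%). Shares have exact Clopper-Pearson intervals. PCR duplicates are removed by UMIs, and all intervals cover counting error only. Log2 ratios in list medians were computed after adding 5 CPM. Genes with a mean of at least 50 CPM over the 2 libraries were measured, which is about 6.7 UMIs in the inhibitor members. A gene past 1.5-fold was called higher or lower. Scrublet, with 6% doublets expected, set a threshold that called 0 DMSO cells, so the inhibitor threshold (0.214) was applied to each library and marked 2.92% and 5.6% of kept cells. Called doublets were kept, and left out as an alternative.

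Named genes were the 12 highest and 12 lowest ratios, up to 4 genes per list and direction past the fold, the 12 genes highest over the other endothelial gates, and Lrg1 and Vwf. Ranked genes had at least 20% of the level of the highest non-endothelial gate and no cell with over 25% of their UMIs over both libraries together, so 1 cell can hold more of the inhibitor UMIs alone; genes of mitochondria, ribosomes, globins and antigen receptors were not ranked. The rule named 107 genes; the text describes those of lists with at least 10 measured genes, and some results are not reported here. The members and the 27 lists were chosen with earlier results of these data known. The ratio code was tested on simulated counts. Python 3.11.15, numpy 2.4.6, scipy 1.17.1 and scanpy 1.11.5 were used.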

Additional observations from a re-analysis of the deposited data

Results flagged for a closer look

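Iigp1, an interferon-induced GTPase, stood out because its ratio of inhibitor to DMSO went opposite ways in 2 endothelial gates; the difference was not tested. In the venular members the ratio was 0.207, and 0.315 without mixed cells. In luminal cells it was 2.15, from 168 to 360 CPM, and 2.02 without mixed cells. Only 3 inhibitor members held a UMI of Iigp1, and 61.5% of these UMIs came from 1 cell.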

How the results depend on the processing

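The lower share of members in the inhibitor library kept its direction under all 11 alternatives. Its log2 ratio of -2.99 lay between -3.23 and -2.33 under 9 of them and was -1.20 without the limits on Cytl1 and Gpihbp1 and -1.32 without the Ptprc limit too. Genes past the fold, 594 higher and 588 lower, depended on the level required. They were 1341 and 1543 at 20 CPM, 269 and 252 at 100 CPM, 44 and 22 at 500 CPM and 199 and 246 at 2-fold. The higher ones numbered 1197 without any cell with fibroblast or smooth muscle genes, 1070 in members without Ackr1 and 1330 with members thinned to 2000 UMIs. Genes above the other endothelial gates, 11 in all, were 24 without mixed cells and 25 without cells with fibroblast or smooth muscle genes. Of 27 list medians 17 were below 0, and 9 were in members without Ackr1 alone. The ER median (0.61 to 1.21) and the immediate early median (-1.79 to -0.76) kept their sign under every alternative run. The MHC class II median turned to 0.74 without mixed cells and to 0.094 in members without Ackr1, and the acute phase median to 0.55 without mixed cells, 0.25 without cells with fibroblast or smooth muscle genes and 0.79 in genes at 20% of the highest other gate. Log2 ratios carry 5 added CPM, so where a gene turned sign with no inhibitor UMI left, the value is not read as a direction. This holds without mixed cells for Ggt5, Gpc3, Comp and Islr, in members without Ackr1 for Ggt5, Gpc3, Comp, Ank2, Metrnl and Islr, in members with Ackr1 for Bmp6, and in thinned members for Gpc3. Without mixed cells, the log2 ratio turned sign for Ggt5 -0.36, Gpc3 -0.89, Gsn -0.70, Comp -0.89, H2-T22 0.12, Ltbp4 -0.0597, Pi16 -0.52 and Islr -1.28. In members without Ackr1 alone (33 and 6 cells), the log2 ratio turned sign for Ggt5 -0.49, Gpc3 -1.59, Gsn -2.58, Comp -4.63, Ank2 -1.94, Mctp1 0.46, Sele 0.57, Esam 0.42, F11r 0.22, Ly6a -1.39, Irf1 0.35, H2-T22 0.065, Mef2c 0.068, Tek 0.28, S1pr1 0.46, Erg 0.0029, Lamb2 -0.57, Metrnl -3.18 and Islr -4.43. In members with Ackr1 alone (98 and 9 cells), the log2 ratio turned sign for Nrp1 -0.058, Bmp4 -2.95 and Bmp6 -1.76. With members thinned to 2000 UMIs (125 and 12 cells), the log2 ratio turned sign for Gpc3 -1.77, H2-T22 0.61, Mef2a 0.057, Tek 0.034, S1pr1 0.0199 and Metrnl -0.0704. With at least 3 UMIs of Selp and Ackr1, the log2 ratio turned sign for Islr -1.001. The cause was not tested. Of 76 described genes past the fold, 67 kept their direction without mixed cells and 76 without called doublets. No paired analysis was possible because each group is 1 library. The alternatives without the limits on Cytl1, Gpihbp1 and Ptprc, with Ackr1 alone, on shares and gates without mixed cells, at 500 CPM, at 1000 UMIs per member, at 20% of the highest other gate and without fibroblast or smooth muscle genes were chosen after seeing the data. Without the DMSO cell with most Vcam1 UMIs, left out after seeing the data, the log2 ratio of Vcam1 was -0.24 in place of -0.75. The inhibitor cell with 51.4% of the inhibitor Vcam1 UMIs was kept there. The median measured gene had 13 UMIs in the 15 inhibitor members and 169 in the 131 DMSO members.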

Other observations

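Lists with fewer than 10 measured genes held further differences between the libraries. Of 9 measured genes of lipid uptake and handling 6 were lower in inhibitor members and 0 higher, with a median of -0.91. Lpl, the lipoprotein lipase, was at 546 and 105 CPM (ratio 0.192), the fatty acid translocase Cd36 at 498 and 261 CPM, and Abca1, a cholesterol exporter, at 439 and 231 CPM. The members' mean Lpl level was 9.04% of that in adipocytes, and 16 DMSO members and 0 inhibitor members were mixed with adipocyte markers; without all mixed cells 3 of 7 were lower. Of 8 measured complement genes 5 were higher and 2 lower. C3 was at 1075 and 2120 CPM. Without mixed cells C3 had a ratio of 0.341, and 2 of 6 genes were higher. The metallothioneins Mt1 and Mt2 were at 1775 and 5883 CPM and at 651 and 2016 CPM, with 70.8% and 67.8% of the inhibitor UMIs from 1 cell.

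Cxcl2, a neutrophil chemokine, had 50 UMIs in DMSO members and 66 in inhibitor members, all 66 in 1 cell. Of cells that met the rest of the rule, 22 in the DMSO library and 0 in the inhibitor library had a UMI of Ptprc.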
